A study of Mus musculus with 9 samples.

Results

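The expression of 10 genes of cholesterol efflux and of the liver X receptors (LXRs) was examined in mouse bone marrow-derived macrophages (BMDMs), macrophages that M-CSF grows from marrow precursors. The genes were taken by symbol from the deposited table of 55335 genes: the receptors Nr1h3 and Nr1h2, the efflux genes Abca1, Abcg1 and Apoe, the lysosomal export genes Npc1 and Npc2, and Soat1, Mylip and Ch25h. All 10 symbols were found, each in 1 row, and all 10 passed the filter on low values. The wild-type cells came from male C57BL/6 mice aged 4 to 6 weeks and grew in 20 ng/mL M-CSF for 5 days. Control cells received medium alone. Model cells received 1 µg/mL lipopolysaccharide (LPS, the cell wall lipid that TLR4 senses) with 30 ng/mL interferon-γ (IFN-γ). M+AnxA5 cells received the same LPS and IFN-γ with 2 µg/mL human recombinant annexin A5 (AnxA5), a protein that binds phosphatidylserine on membranes. All 3 groups were treated for 6 hours and each gave 3 libraries, so that the comparison of Model with Control measures the stimulation and that of M+AnxA5 with Model measures what AnxA5 added to it. No group received AnxA5 without LPS and IFN-γ.

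LXRα and LXRβ are nuclear receptors that bind oxysterols, the oxidised derivatives of cholesterol, and act with the retinoid X receptors. When sterol accumulates in a macrophage, they switch on the pumps that pass cholesterol to lipoproteins outside the cell, and they are known to dampen inflammatory genes. Cholesterol taken up with lipoproteins or dying cells leaves the lysosome through NPC2 and NPC1 and is then exported, esterified for storage or oxidised.

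The libraries held an estimated 25.9M to 36.1M fragments (M for mega). Levels were given as FPKM, fragments per kilobase of transcript and per unit of mapped depth, so that levels of different genes can be set side by side. The genes at 1 FPKM or more numbered 11348 to 11476 in the Control libraries, 9970.0 to 10021 in the Model libraries and 9969 to 10172 in the M+AnxA5 libraries. All 8 macrophage markers examined were at a mean of 1 FPKM or more in every group, and their summed level was 13590 to 14666 FPKM in Control, 7859 to 8747 in Model and 7153 to 8007 in M+AnxA5. Most of that sum was Lyz2, at a mean of 12129 FPKM in Control and 6388 in Model, and the markers split: Lyz2, Csf1r, Fcgr3 and Cd68 were lower in every Model than in every Control library, and Adgre1, Fcgr1, Mertk and Spi1 were higher, with Model means 1.84, 3.66, 2.99 and 1.29 times those of Control. The summed level of 5 dendritic cell markers was 0.313 to 0.541, 12.8 to 14.5 and 11.5 to 13.1 FPKM in the same order, that of 5 stromal markers 92.3 to 153, 71.5 to 108 and 60.9 to 108 FPKM, and that of 6 neutrophil and precursor markers 178 to 246, 213 to 286 and 245 to 254 FPKM. Of the dendritic cell markers, the difference lay in Xcr1 (mean 0.0652 FPKM in Control and 4.86 in Model) and Clec9a (0.240 and 8.77), while Flt3, Zbtb46 and Siglech stayed at or below 0.214 FPKM in every library. The neutrophil sum was mostly S100a8 and S100a9, and the precursor markers Mpo and Elane were at means of 4.33 and 6.22 FPKM in Control and 0.114 and 0.127 in Model. T cell markers summed to at most 0.517 FPKM, B cell markers to at most 2.52, erythroid markers to at most 0.892 and mast cell and basophil markers to at most 2.47. The part of these markers in the results was not tested, and in such bulk samples fewer cells of a type and less RNA per cell cannot be told apart. Of the LPS and IFN-γ response, 4 genes examined (Nos2, Il12b, Cxcl9 and Acod1) summed to at most 0.731 FPKM in any Control library and to at least 6117 FPKM in any stimulated library, as labelled. Ribosomal fragments of Gm23935 and AY036118 took 0.53% to 7.47% of the summed FPKM, most in the library numbered 2 of each group. Neither labels nor methods say that replicates were separate cultures or animals. The p-values then cover only the spread among these libraries, and that spread may be technical.

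The promoters of the genes were read to show the sequence from which these transcripts start. Windows of 300 bases, 250 before to 50 after an annotated start, were given by RefSeq (GRCm38.p6) for 8 of the 10 genes, 11 windows in all. Abcg1 and Npc1 had no window. The LXR element (DR4) was searched as 2 copies of AGGTCA in the same direction with 4 bases between them, on both strands. With up to 2 mismatches it matched 0 of the 11 windows and 3.02% of all 32851 windows. With up to 3 mismatches, a setting chosen after seeing the data, it matched 1 of the 11, that of Abca1 at 67 to 52 bases before the start, and 21.9% of all windows. The interferon element ISRE (GAAANNGAA) matched 1 window of Apoe at 122 to 114 bases before the start, and 8.56% of all windows. The cAMP element CRE (TGACGTCA), also chosen after seeing the data, matched that of Ch25h at 61 to 54 bases before the start, and 1.79% of all windows. GAS (TTCNNNGAA), NF-κB (GGGNNTTTC) and SRE (CACCCCAC) matched 0 of the 11 windows, and 8.30%, 4.36% and 2.87% of all windows. A match is a run of letters and not a measured binding site. Sequence outside these windows was not searched, so a lack of matches does not show that a gene lacks the element. The windows with a match are printed 5′ to 3′ on the strand of the gene, with the match in capitals, at chr4:53159846-53160145 for Abca1, chr19:34475099-34475398 for Ch25h and chr7:19699139-19699438 for Apoe, all on the minus strand:
Abca1: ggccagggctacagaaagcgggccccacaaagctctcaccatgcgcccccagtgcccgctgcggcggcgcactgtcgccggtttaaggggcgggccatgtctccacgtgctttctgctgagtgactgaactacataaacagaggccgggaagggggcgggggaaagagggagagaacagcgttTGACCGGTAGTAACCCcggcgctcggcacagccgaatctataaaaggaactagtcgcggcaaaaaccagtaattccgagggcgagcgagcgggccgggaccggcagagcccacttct
Ch25h: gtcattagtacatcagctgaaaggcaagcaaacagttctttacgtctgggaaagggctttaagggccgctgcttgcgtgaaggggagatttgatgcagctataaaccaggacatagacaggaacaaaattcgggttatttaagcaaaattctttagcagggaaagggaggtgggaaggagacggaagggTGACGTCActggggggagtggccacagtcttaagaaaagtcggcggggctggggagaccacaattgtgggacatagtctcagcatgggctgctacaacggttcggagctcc
Apoe: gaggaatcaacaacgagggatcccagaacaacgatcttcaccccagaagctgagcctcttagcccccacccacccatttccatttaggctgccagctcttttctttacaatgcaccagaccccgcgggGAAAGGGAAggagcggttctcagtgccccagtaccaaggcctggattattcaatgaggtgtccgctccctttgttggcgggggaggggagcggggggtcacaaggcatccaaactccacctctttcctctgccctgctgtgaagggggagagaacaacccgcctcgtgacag
The windows also differed in CpG, the dinucleotide that clusters in promoters active in many cell types. The Mylip window held 29, that of Abca1 26, that of Npc2 21 and those of Nr1h2 and Soat1 19 each. The Ch25h window held 10, those of Apoe 10, 12 and 11 and those of Nr1h3 8 and 10. The median over all windows was 7. A relation of CpG to the changes was not tested.

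Stimulation with LPS and IFN-γ raised 5 of the 10 genes and lowered the other 5, and no gene had overlapping libraries in Control and Model, as for 83.8% of all genes tested. Ch25h, Nr1h3, Abcg1, Npc2 and Nr1h2 rose, while Npc1, Apoe, Mylip, Soat1 and Abca1 fell. Genes were called where limma gave a Benjamini-Hochberg adjusted p under 0.05 over 11657 genes and a fold over 1.2 on the log2(FPKM + 1) scale, which understates the change of low genes. By this rule 76.8% of all genes tested were called between Model and Control, 16.5% higher and 60.3% lower, so that a call of a member in this comparison is common among all genes. The median log2 fold change was -0.03 over the 10 members and -0.45 over all genes tested. That shift was -0.24 with upper-quartile scaling and -0.10 with quantile normalization.

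Adding AnxA5 to the stimuli changed 2 of the 10 genes by the same rule. Npc1 and Soat1, both lowered by stimulation, were higher in M+AnxA5 than in Model, whose libraries both comparisons share. For comparison, 2.76% of all genes tested were called between M+AnxA5 and Model, 1.95% higher and 0.815% lower. The 3 libraries numbered 2 held the most ribosomal fragments of their groups. Without them, which left 2 libraries in each group, 0 of the 10 genes and 11 of all genes were called in this comparison. Log2 fold changes were then 0.30 for Npc1 (limma, adjusted p = 0.176) and 0.27 for Soat1 (0.229), against 0.30 and 0.31 with all libraries. The parts of fewer libraries and of ribosomal fragments in this loss of calls were not tested. An unadjusted p under 0.05 by limma held for 3 of the 10, and the share of all genes at that threshold was not counted. The libraries of the 2 groups did not overlap for 4 of the 10 genes, Npc1, Soat1, Abca1 and Npc2, against 24.8% of all genes tested. Against Control, M+AnxA5 had the same 5 genes higher and the same 5 lower, where 77.5% of all genes were called, 16.4% higher and 61.1% lower. This comparison shares its Control libraries with that of Model and is not independent of it.

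**Figure D1:**
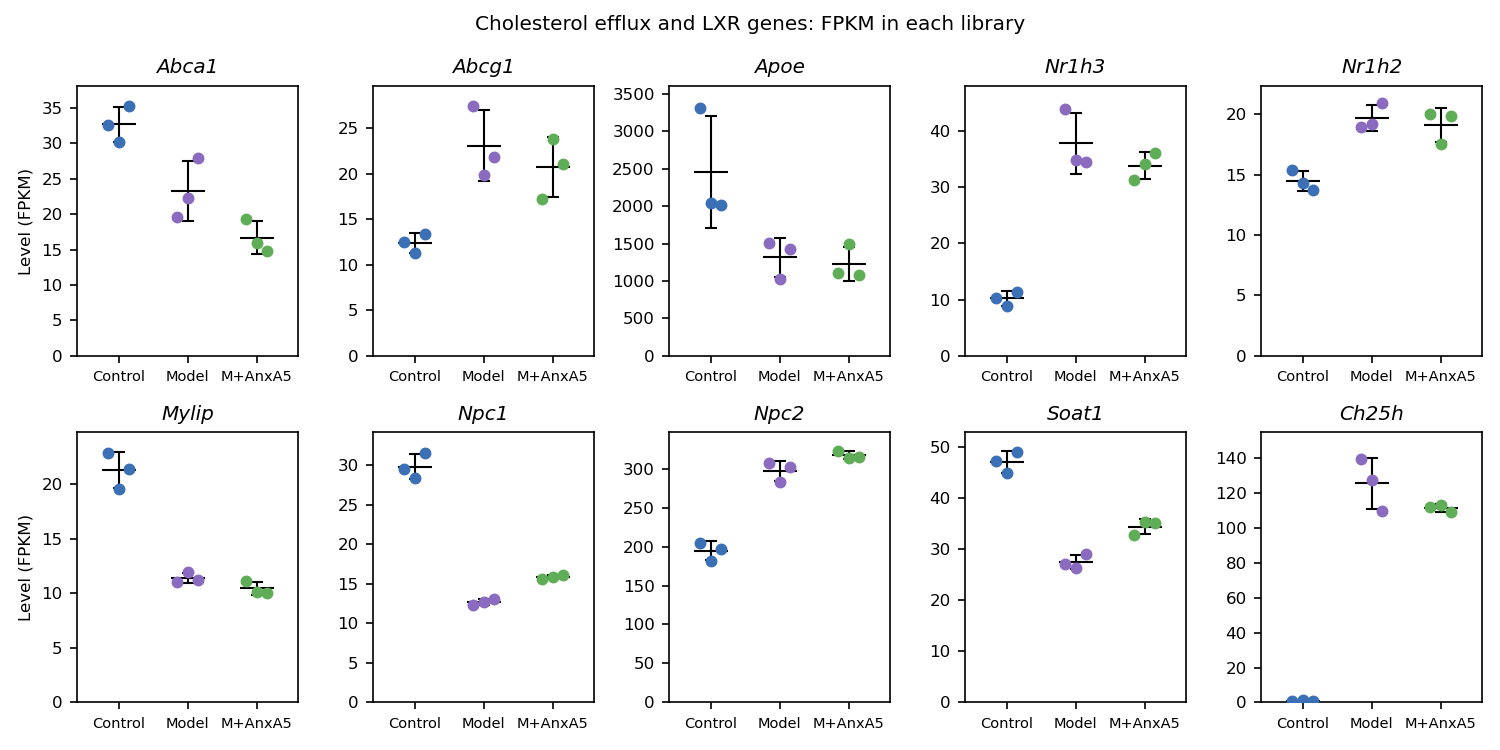
FPKM of each of the 10 genes (y axis, starting at 0, a scale of its own in each panel) in the 3 libraries of Control, Model and M+AnxA5 (x axis). Points are libraries, the horizontal bar is the mean and the whiskers are the SD over 3 libraries. Control and Model are apart in every panel, and M+AnxA5 lies above Model for Npc1, Npc2 and Soat1 and below it for Abca1.

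Both receptor genes were higher after stimulation, with the larger log2 fold change for LXRα. Nr1h3 (LXRα, chromosome 2: 91184061 to 91202834, minus strand, GRCm38) gave 10.3, 8.86 and 11.4 FPKM in Control, 43.9, 34.8 and 34.5 in Model and 31.2, 34.1 and 36.0 in M+AnxA5. Every stimulated library lay above every Control library, and those with and without AnxA5 overlapped. The mean was 3.70 times as high in Model as in Control (log2 fold change 1.79, SE 0.11, adjusted p = 5.92e-07 by limma). Nr1h2 (LXRβ, chromosome 7: 44549616 to 44553951, minus strand) was at 15.4, 14.3 and 13.7 FPKM in Control, 19.0, 19.2 and 20.9 in Model and 20.1, 17.5 and 19.9 in M+AnxA5. It rose by 0.42 (SE 0.07, adjusted p = 3.19e-04 by limma), a smaller step that still separated the groups. Nr1h2 had the higher mean FPKM of the pair in Control (14.5 ± 0.84 against 10.2 ± 1.28, SD, n = 3) and Nr1h3 in Model (37.7 ± 5.35 against 19.7 ± 1.07). With AnxA5 neither receptor was called, at -0.15 (95% interval -0.40 to 0.11) for Nr1h3 and -0.04 (-0.19 to 0.11) for Nr1h2. Exons of Nr1h3 overlap those of Gm13783 on the same strand, which was at no more than 0.193 FPKM in any library.

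The 2 cholesterol pumps moved in opposite directions on stimulation. Abca1, which loads cholesterol and phospholipid onto lipid-free apolipoprotein A-I (chromosome 4: 53030787 to 53159895, minus strand), was at 32.5, 30.2 and 35.2 FPKM in Control, 19.6, 22.2 and 27.9 in Model and 19.3, 15.97 and 14.9 in M+AnxA5. The 3 groups descended without overlap, although the highest M+AnxA5 library (19.3 FPKM) came close to the lowest Model library (19.6). The change from Control to Model was -0.48 (SE 0.13, adjusted p = 0.00739 by limma), which is near the median of all genes, and with upper-quartile scaling it was -0.23 and not called (adjusted p = 0.13). From Model to M+AnxA5 Abca1 was lower by a similar amount, with a log2 fold change of -0.45 (SE 0.13, 95% interval -0.75 to -0.15) that did not pass the test (limma, unadjusted p = 0.00846 and adjusted p = 0.121). Only 0.806% of the genes tested had a lower log2 fold change in that comparison. Under the 22 other settings it lay between -0.56 and -0.31 and was never called, with an adjusted p between 0.0805 and 0.498.

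Abcg1, the pump that passes cholesterol to HDL particles (chromosome 17: 31057675 to 31117988, plus strand), was at 12.5, 11.2 and 13.4 FPKM in Control, 27.4, 19.9 and 21.8 in Model and 17.2, 23.8 and 21.1 in M+AnxA5. It rose by 0.84 (SE 0.14, adjusted p = 3.83e-04 by limma), and with AnxA5 its libraries overlapped those of Model (-0.15, 95% interval -0.46 to 0.17). In FPKM, Abca1 was above Abcg1 in every Control library, while the libraries of both pumps overlapped in Model and in M+AnxA5.

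Apoe, the apolipoprotein that macrophages secrete as an acceptor of cholesterol (chromosome 7: 19696109 to 19699188, minus strand), had the highest FPKM of the 10 genes in every group. It was at 3315, 2036 and 2017 FPKM in Control, 1508, 1021 and 1427 in Model and 1102, 1494 and 1082 in M+AnxA5. Control replicate 1 stood well above the other Control libraries, yet all 3 were above every stimulated library. Apoe was lower in Model by a log2 fold change of -0.88 (SE 0.23, adjusted p = 0.0058 by limma), where 22.5% of the genes tested had a lower value. M+AnxA5 did not differ detectably from Model (-0.10, 95% interval -0.62 to 0.42).

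The genes of lysosomal cholesterol export, whose proteins pass cholesterol from one to the other, also split. Npc1, the membrane protein of the pair (chromosome 18: 12189692 to 12236400, minus strand), was at 29.5, 28.4 and 31.5 FPKM in Control, 12.4, 12.7 and 13.0 in Model and 15.6, 15.8 and 16.2 in M+AnxA5. The groups stood apart with little spread inside each, Control highest and Model lowest. Npc1 fell by 1.17 on the log2 scale (SE 0.05, adjusted p = 3.29e-08 by limma), and with AnxA5 it was 0.30 higher than in Model (SE 0.05, 95% interval 0.19 to 0.41, adjusted p = 0.013), still 0.87 below Control on that scale (log2 fold change -0.87). The call with AnxA5 did not hold without Model library 2 (adjusted p = 0.0553 by limma), nor without M+AnxA5 library 2 (0.0514) or 3 (0.0636). In these fits the log2 fold change stayed between 0.29 and 0.30. Exons of Npc1 overlap Rmc1 on the opposite strand, which was at 6.11 to 7.94 FPKM. The libraries marked strand, and whether the counting used it is not given in the sources used here.

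Npc2, the soluble partner (chromosome 12: 84754562 to 84773152, minus strand), was at 205, 182 and 197 FPKM in Control, 307, 282 and 302 in Model and 323, 313 and 316 in M+AnxA5. It rose by 0.61 (SE 0.05, adjusted p = 5.26e-06 by limma). With quantile normalization the rise was 0.23, under the fold threshold. All 3 M+AnxA5 libraries were above all Model libraries, but the log2 fold change of 0.09 (95% interval -0.03 to 0.22, adjusted p = 0.412) was not called. The means of Npc2 and Npc1 were 195 and 29.8 FPKM in Control and 297 and 12.7 in Model, so the gap between the partners widened.

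Soat1, which esterifies cholesterol for storage in lipid droplets (chromosome 1: 156424525 to 156474331, minus strand), followed the order of Npc1. It was at 47.2, 44.9 and 49.1 FPKM in Control, 27.1, 26.3 and 29.0 in Model and 32.7, 35.4 and 35.1 in M+AnxA5, with no overlap between groups. It fell by 0.76 on the log2 scale in Model (SE 0.05, adjusted p = 1.34e-06 by limma), where 28.6% of the genes tested had a lower log2 fold change. In M+AnxA5 it was 0.31 higher than in Model (SE 0.05, 95% interval 0.19 to 0.44, adjusted p = 0.0185) and -0.44 against Control. The latter is near the median of all genes tested between M+AnxA5 and Control, -0.46. The call with AnxA5 was lost without Model library 1 (adjusted p = 0.0569) or 2 (0.0801), without M+AnxA5 library 2 (0.0751) or 3 (0.0826), and with TPM scaling (0.0533), at log2 fold changes of 0.29 to 0.31. The correlation of log2(FPKM + 1) between Soat1 and Npc1 over the 9 libraries was 0.978, a description of points that share the 3 groups.

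Mylip, a ubiquitin ligase induced by LXR that limits lipoprotein uptake (chromosome 13: 45389742 to 45412022, plus strand), was at 22.8, 19.5 and 21.4 FPKM in Control, 11.03, 11.9 and 11.2 in Model and 11.1, 10.1 and 10.1 in M+AnxA5. Its level in both stimulated groups was near one value, well below Control. It fell by 0.84 on the log2 scale in Model (SE 0.07, adjusted p = 2.59e-06 by limma), where 24.1% of the genes tested had a lower log2 fold change. AnxA5 made no called difference (-0.12, 95% interval -0.27 to 0.03).

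Ch25h, which makes 25-hydroxycholesterol, an interferon-induced oxysterol that binds LXR and holds back sterol synthesis (chromosome 19: 34473778 to 34475164, minus strand), showed the largest change of the 10 genes. It was at 0.781, 1.43 and 1.08 FPKM in Control, which corresponds to an estimated 31, 54 and 45 fragments, and at 139, 127 and 110.0 FPKM in Model and 112, 113 and 109 in M+AnxA5. The gene was thus low but detected without stimulation and the third highest of the 10 with it. Its mean was 114 times as high in Model as in Control (log2 fold change 5.92, SE 0.12, adjusted p = 3.49e-10 by limma), and 99.6% of the genes tested had a lower log2 fold change. With AnxA5 the libraries overlapped those of Model (-0.16, 95% interval -0.43 to 0.10). An antisense neighbour with overlapping exons, Gm26902, reached at most 1.72 FPKM.

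**Figure D2:**
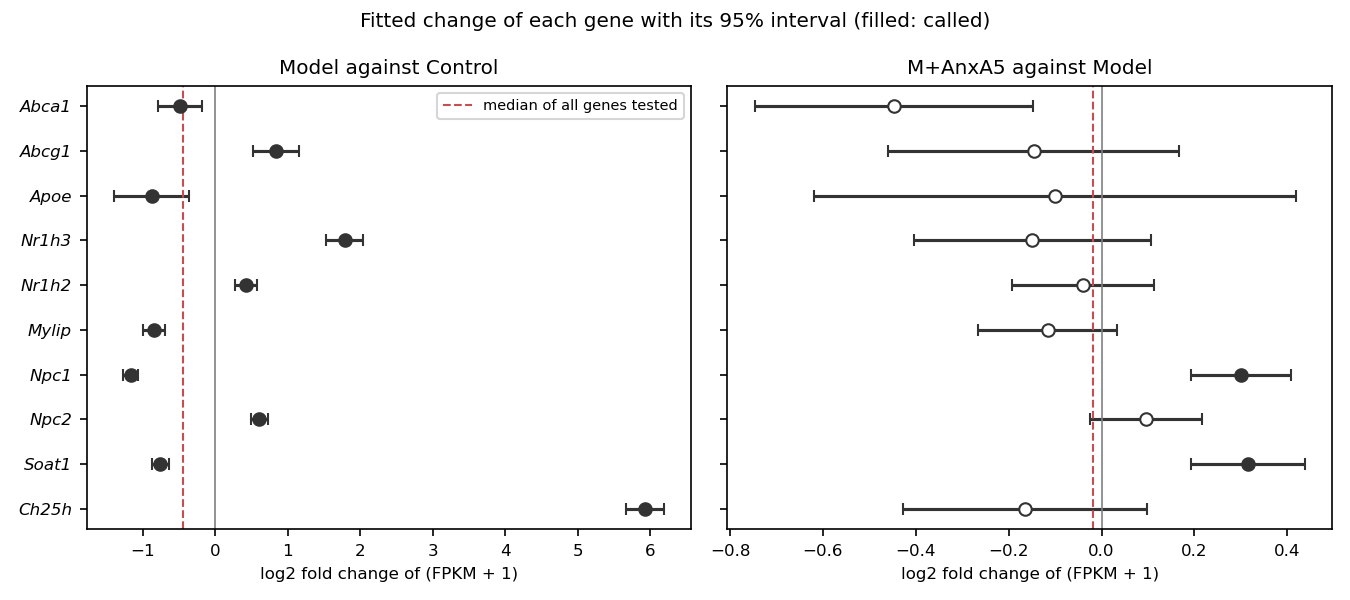
Log2 fold change of (FPKM + 1) of each gene from the limma fit (x axis, scales differ between panels) with its 95% interval, for Model against Control (left) and M+AnxA5 against Model (right). Filled points were called, and the dashed line is the median of all genes tested. All 10 points are filled on the left, 5 on each side of 0, and only Npc1 and Soat1 on the right.

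The order of levels among the 10 genes shifted with stimulation. In Control the mean FPKM descended from Apoe through Npc2, Soat1, Abca1, Npc1, Mylip, Nr1h2, Abcg1 and Nr1h3 to Ch25h, and the neighbours Abca1 and Npc1, and Abcg1 and Nr1h3, overlapped between libraries. In Model Ch25h and Nr1h3 followed Npc2, and Soat1, Abca1, Abcg1 and Nr1h2 formed a run of overlapping neighbours above Npc1 and Mylip. In M+AnxA5 Soat1 and Nr1h3 overlapped, as did the run Abcg1, Nr1h2, Abca1 and Npc1, with Mylip below it.

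Most of the other sterol handling genes were lower after stimulation. Of 83 such genes listed by role, all were found, 13 were below the filter on low values and 70 were tested, of which 4 were called higher, 56 lower and 10 not called between Model and Control, with a median log2 fold change of -0.75. Over all genes tested, 60.3% were called lower and 16.5% higher, with a median of -0.45, and the counts of each role stand beside that share. Among the partners and co-regulators of LXR, 10 of 12 fell and 0 rose by limma (11 and 0 at an unadjusted p under 0.05).

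The genes listed as other LXR targets fell in 11 of 14 cases between Model and Control and rose in 1, with a median of -0.99. Whether each listed gene depends on LXR in these cells was not tested. Arl4c, a small GTPase, fell by 2.06 on the log2 scale, from 39.9 ± 1.38 to 8.83 ± 0.285 FPKM (SD, n = 3), and Abca9, a lipid transporter, by 2.99, from 10.99 ± 0.95 to 0.505 ± 0.07 FPKM. Mertk, a receptor for dying cells, went the other way. Its level was 47.5 ± 2.30 FPKM in Control and 142 ± 0.905 in Model, and limma gave it a log2 fold change of 1.56 (adjusted p = 2.63e-09). It and the 3 other genes called higher are named after their values were seen. With AnxA5, 0 of the 14 were called by limma, and 4 had an unadjusted p under 0.05, all with higher values than in Model. The share of all genes at that unadjusted threshold was not counted, so these 4 are not read as a change of the list.

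Among lipoprotein receptors and efflux partners 9 of 10 fell, with a median of -0.78. Of the genes of esterification and ester breakdown, 5 of 6 fell and Lipe, a neutral lipase, rose by 0.70. Nceh1, a hydrolase that frees cholesterol from its esters, was at 83.7, 79.6 and 84.1 FPKM in Control, 19.6, 16.7 and 18.3 in Model and 25.0, 27.9 and 27.8 in M+AnxA5. It was 0.54 higher with AnxA5 than in Model (SE 0.07, adjusted p = 0.00478 by limma), with no overlap and still far below Control, and the call was lost without the 3 libraries numbered 2 (log2 fold change 0.46, adjusted p = 0.103). Plin2, a coat protein of lipid droplets, was at 214 ± 14.7 FPKM in Control, 94.0 ± 3.96 in Model and 116 ± 1.63 in M+AnxA5 (log2 fold change with AnxA5 0.30, SE 0.05, adjusted p = 0.0223). The Plin2 call did not hold with the replicate number as a block (adjusted p = 0.0718), nor without Model library 2 (0.0808) or 3 (0.0818), nor without M+AnxA5 library 1 (0.0668), 2 (0.0751) or 3 (0.0846).

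Sterol carriers and lysosomal export genes were lower in 11 of 15 cases, with a median of -0.56. Vps13c, a lipid transfer protein, was at -2.04 on the log2 scale, and Stard4, which carries cholesterol between membranes, at -2.36. Stard3, a late endosomal sterol carrier, and Lamp2, a lysosomal membrane protein, rose by 0.82 and 0.45. Of the oxysterol enzymes and receptors 4 of 5 fell and 0 rose by limma, also at an unadjusted p under 0.05. Gpr183, the receptor for an oxysterol made from the product of Ch25h, was at 12.6, 12.6 and 12.6 FPKM in Control and at 0.18, 0.307 and 0.127 in Model (log2 fold change -3.50, adjusted p = 5.09e-10 by limma). Ch25h and Gpr183 thus stood at opposite ends of the oxysterol genes. In SREBP control 6 of 8 fell, with Scap at -1.05 and Mbtps1 at -0.92.

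With AnxA5, 3 of the 70 genes were called higher than in Model, Nceh1 and Plin2 among them, 1 was called lower and 66 were not called, with a median of -0.00037. Over all genes tested, 1.95% were called higher and 0.815% lower, so these few calls are not read as a change of the list. Without the 3 libraries numbered 2, 0 of the 70 were called. Npc1, Soat1, Nceh1 and Plin2 act in lysosomal export, esterification, ester breakdown and droplet storage of cholesterol. Neither pump and neither LXR was called. These 4 genes were lower in Model than in Control, and both comparisons share the Model libraries.

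**Figure D3:**
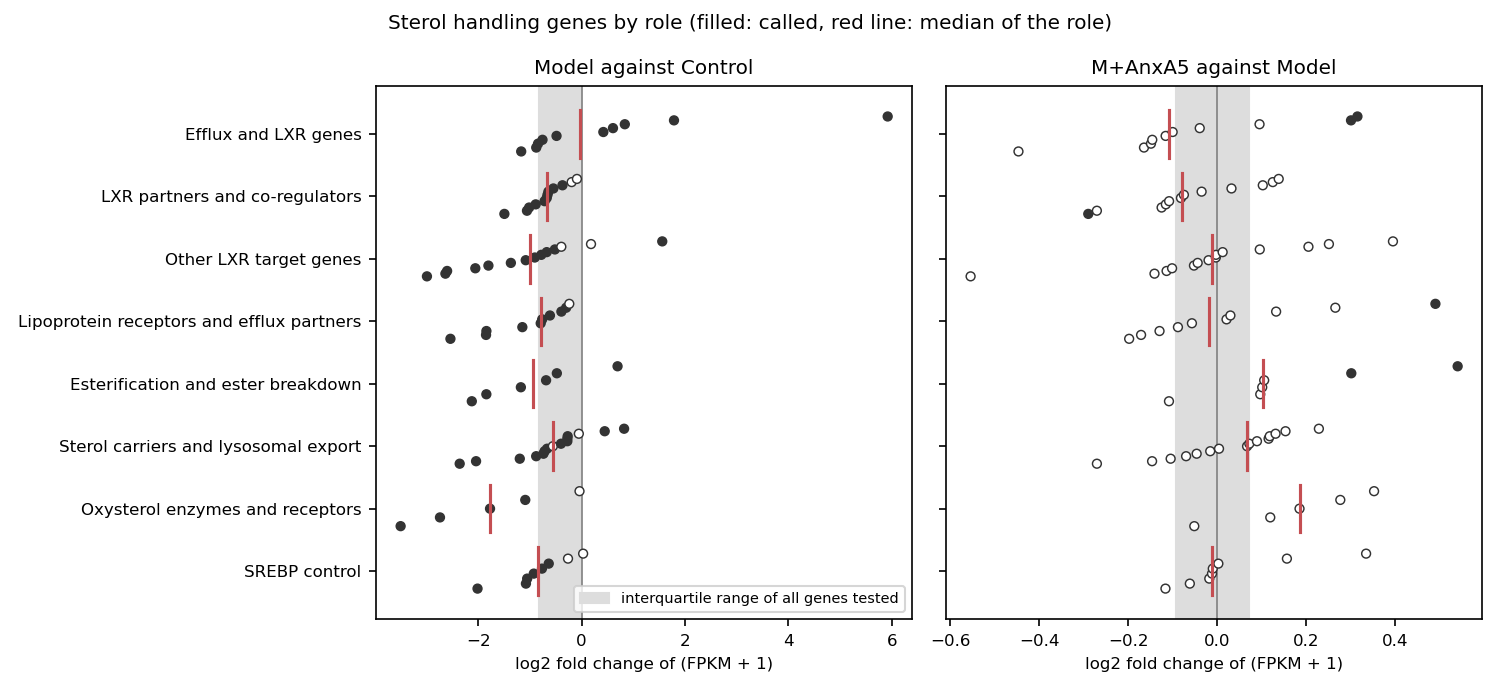
Log2 fold change of (FPKM + 1) of the 10 genes (top row) and of 70 other sterol handling genes by role, for Model against Control (left) and M+AnxA5 against Model (right), on different x scales. Points are genes, filled where called, the red line is the median of the row and the grey band is the interquartile range of all genes tested. On the left the median of every role lies below 0, while the top row spans both sides, and on the right 6 points are filled, of which 5 lie above 0.

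The genes most like the members over the 9 libraries were sought by Pearson r of log2(FPKM + 1) among 6626 genes, as a description of points that share 3 groups. For Npc1 they were Cerk (r = 0.998), Igf2r (0.997) and Msmo1 (0.997), a ceramide kinase, a receptor that carries enzymes to lysosomes and an enzyme of sterol synthesis. For Soat1 they were Amz1 (0.995), Mfsd1 (0.992) and Gpnmb (0.992). Gpnmb, a glycoprotein of macrophages under lysosomal stress, was at a mean of 2014 FPKM in Control, 922 in Model and 1290 in M+AnxA5. Its order is that of Soat1, which its choice by r favours. For Ch25h they were Ddx58 (0.999), Birc3 (0.999) and Cycs (0.999), of which Ddx58 encodes the RNA sensor RIG-I. Ddx58 was at a mean of 6.21 FPKM in Control, 41.1 in Model and 39.5 in M+AnxA5.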

How the data were processed

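RNA-seq of BMDMs in 3 groups of 3 libraries was analysed, grouped by the labels. The authors deposited FPKM values for 55335 genes, and the submitters' processing notes name cutadapt 1.9, STAR, StringTie 2.1.6, DESeq2, edgeR and mm10, without their roles. Coordinates came from GENCODE (GRCm38), in which 55154 gene IDs were found. Depth was estimated from the smallest steps of the deposited FPKM. Whole fragments could not be recovered, so no count test was run.

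A gene needed 1 FPKM in 3 or more of the 9 libraries, which left 11657. limma 3.58.1 (R 4.3.3) was fitted to log2(FPKM + 1), all libraries in 1 fit without a block. Calls needed an adjusted p under 0.05 and a fold over 1.2, the thresholds of the study. Counts at an unadjusted p under 0.05 were made for the members and lists only, not over all genes. The fit was first checked on simulated data with 200 changed genes. Genes were named by rule: all members, in each role those called with AnxA5, otherwise up to 2 with the lowest adjusted p between Model and Control, and the 3 genes most like Npc1, Soat1 and Ch25h among genes that averaged 5 FPKM or more in any group. The members and lists were chosen with earlier results of these data known. Alternatives were 2 pseudocounts (0.1 and 0.5 FPKM), 2 filters, 3 scalings, 2 empirical Bayes settings, 6 libraries in the fit, a replicate block, a fold threshold of 1.5 or none, and leaving out libraries. A few genes that the rule names are not reported here.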

Additional observations from a re-analysis of the deposited data

How the results depend on the processing

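Over 22 settings, 637 of 660 values of the 10 genes kept their direction and their side of the threshold, 19 lost the call and 4 turned sign, and none became called. Of 440 values of the other named genes, 417 held and 23 lost the call. The 4 that turned were uncalled and near 0, all for M+AnxA5 against Model. On leaving out 1 library, Apoe lay between -0.27 and 0.00674 and Nr1h2 between -0.073 and 0.020, and Nr1h2 was at 0.00286 without the 3 libraries numbered 2. The members called with AnxA5 went from 2 to 1 with TPM scaling, to 0 with a fold threshold of 1.5 and to 0 without the 3 libraries numbered 2 (3 had an unadjusted p under 0.05 by limma in both), and leaving out 1 library gave 0 to 2. The sterol handling genes called outside the members went from 4 to 0 under each of the last 2 settings, and leaving out 1 library gave 2 to 5. In those 2 settings 24 and 14 of these genes had an unadjusted p under 0.05 by limma. The share of all genes at that unadjusted threshold was not counted, so the unadjusted counts are no result about these genes or the members. Over all genes, the 322 calls with AnxA5 became 167 without a filter, 79 with a fold threshold of 1.5, 11 without the libraries numbered 2, and 121 to 347 on leaving out 1 library. A filter of 5 FPKM, which tests fewer genes, left 5518 of the 8949 calls between Model and Control and 5588 of the 9031 between M+AnxA5 and Control. Calls between Model and Control were 78.5% lower as deposited, 75.9% with TPM, 67.8% with upper-quartile scaling and 58.8% with quantile normalization. With upper-quartile scaling Soat1 was at -0.19 between M+AnxA5 and Control and lost its call by the fold. The cause of these changes was not tested otherwise.

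The replicate number as a block gave 185 calls with AnxA5 over all genes and kept those of Npc1 and Soat1. Libraries of the same number correlated between groups at 0.016 to 0.206 in their deviations. Between Model and M+AnxA5, 6 of 6 libraries correlated best with their own number. This held for 5 of 6 between Control and Model and for 4 of 6 between Control and M+AnxA5. These counts are a hint from the data and not from the design. Whether the numbers mark paired samples is not known, and they were not treated as pairs. With 3 libraries a group, a difference like that of Abca1 with AnxA5 was not resolved.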
